A study of Mus musculus with 9 samples.

Results

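The 2′,5′-oligoadenylate synthetase (OAS) genes were followed in macrophages sorted from mouse livers at E15.5 of embryonic development. Bulk RNA-seq compared 5 Mrc1Cre Xpr1fl/fl samples with 4 Xpr1fl/fl samples, which carry the same floxed Xpr1 alleles without Cre and served as controls. XPR1 carries inorganic phosphate out of cells, and the comparison asks how macrophages are affected when they lose it. Cre was expressed from the Mrc1 locus, which encodes the mannose receptor CD206, so that liver endothelial cells that express Mrc1 can recombine as well. The sort gate (CD45+ F4/80hi CD11blow) took Tim4hi and Tim4lo macrophages together. The labels do not say which samples came from separate embryos, so the p-values below measure the spread between these samples, which may be partly technical.

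The members were chosen by name: Oas1a, Oas1b, Oas1c, Oas1g, Oas2, Oas3, Oasl1 and Oasl2. All 8 have a row among the 13708 genes of the deposited table, and all 8 passed the filter on low values (10 normalized counts or more in 4 or more samples), which left 13594 genes, through both genotypes (lowest value, 35.0). They were chosen by the normalized counts of these samples, with the difference between the genotypes already known. That difference is therefore given for them as a description, without a test. The annotation of the mouse genome (GRCm39) lists 12 OAS genes, and the remaining 4, Oas1d, Oas1e, Oas1f and Oas1h, were not analysed here.

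OAS proteins are interferon-induced sensors of double-stranded RNA. Bound to such RNA, the active enzymes join ATP into 2′,5′-linked oligoadenylates (2-5A), a second messenger of the antiviral response. The forms differ in how many OAS units they join: the OAS1 proteins hold a single unit, OAS2 a pair, and OAS3, which binds long double-stranded RNA best, 3 of them with the catalytic site in the last. OASL proteins carry ubiquitin-like domains behind the OAS unit. Mouse Oasl1 has no synthetase activity and is known to restrain the translation of Irf7 mRNA, whereas Oasl2 is an active synthetase. The mouse Oas1 genes are a set of recent duplicates, among which Oas1b is known for resistance to flaviviruses and is truncated in most laboratory strains.

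The 8 genes lie in 2 loci on chromosome 5 (GRCm39 coordinates, with the gene models of GENCODE). The first locus, of 41.0 kb, holds Oasl2 (ENSMUSG00000029561, 115034997 to 115050295) and Oasl1 (ENSMUSG00000041827, 115061294 to 115075974), both on the plus strand. The second, of 178.1 kb, begins with Oas2 (ENSMUSG00000032690, 120868398 to 120887933) and Oas3 (ENSMUSG00000032661, 120891163 to 120915729) on the minus strand. The Oas1 genes follow. Oas1c (ENSMUSG00000001166, 120938259 to 120950579, minus strand) and Oas1b (ENSMUSG00000029605, 120950700 to 120962228, plus strand) point away from each other with 120 bases between their starts. Oas1g (ENSMUSG00000066861, 121014205 to 121025676) and Oas1a (ENSMUSG00000052776, 121031070 to 121046449) close the locus on the minus strand. The canonical transcript of Oas1b is annotated as a coding transcript with loss of function.

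RefSeq promoter windows, of 250 bases before and 50 after the start site, matched 6 of the 8 genes, all but Oas1b and Oas2. Each window was found once on chromosome 5 of GRCm39. The 120 bases before the start site are shown for these 6 genes, because the pair of genes with the largest difference between the genotypes is unlike in them: Oas3 carries the core of an interferon-stimulated response element, whereas in Oasl1 no such core was found. Sequences run 5′ to 3′ on the strand of the gene, and capitals mark the core GAAANNGAA on either strand, where N is any base.
Oas1a (chr5:121045589-121045708, minus strand): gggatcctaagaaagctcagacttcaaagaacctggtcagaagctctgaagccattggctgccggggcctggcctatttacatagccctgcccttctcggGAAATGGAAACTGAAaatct
Oas1g (chr5:121025677-121025796, minus strand): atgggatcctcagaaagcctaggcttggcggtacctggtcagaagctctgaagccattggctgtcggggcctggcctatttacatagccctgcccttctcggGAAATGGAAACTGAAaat
Oas1c (chr5:120950580-120950699, minus strand): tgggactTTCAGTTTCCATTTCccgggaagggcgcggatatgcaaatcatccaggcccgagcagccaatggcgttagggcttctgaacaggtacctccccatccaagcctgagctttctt
Oas3 (chr5:120915725-120915844, minus strand): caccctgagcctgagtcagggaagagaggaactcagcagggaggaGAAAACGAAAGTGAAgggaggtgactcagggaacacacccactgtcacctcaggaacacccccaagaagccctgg
Oasl1 (chr5:115061179-115061298, plus strand): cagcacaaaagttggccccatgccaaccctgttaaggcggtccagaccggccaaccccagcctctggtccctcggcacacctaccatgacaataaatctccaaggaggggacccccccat
Oasl2 (chr5:115034875-115034994, plus strand): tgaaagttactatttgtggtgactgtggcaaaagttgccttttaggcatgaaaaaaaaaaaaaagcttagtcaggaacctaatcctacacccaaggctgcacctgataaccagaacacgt

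The core was found in 4 of the 6 windows (Oas1a, Oas1c, Oas1g and Oas3), each time as 2 overlapping matches, and in 8.56% of the 32851 windows of all genes. In Oas1a and Oas1g the matches lie directly before the start site, and the longest run of letters that both stretches share is 56 bases. Oas1c holds the same element on the opposite strand, within a run of 19 bases shared with Oas1a and Oas1g, at the far end of the interval that separates it from Oas1b. These matches (120950678 to 120950692) thus lie closer to the annotated start of Oas1b (120950700) than to that of Oas1c. They also read on the strand of Oas1b, for which no window was matched. In Oas3 the matches begin 75 and 69 bases before the start site. Of the other motifs searched on both strands, GGAANNGAA (the composite site of ETS and IRF factors) was in 0 of the 6 windows and 8.24% of all windows. TTCNNNGAA (the gamma-activated site) was in the Oas1a window and in 8.3% of all, and TATAAA in the Oasl2 window, on the opposite strand, and in 13.62% of all. Exons of GENCODE models of the same gene cover 22 bases of the Oas1a stretch, both matches included, and 5 bases each of the Oas3 and Oasl1 stretches, and none of the other 3. A match of letters is a description and not a bound site.

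Xpr1 itself checked the labels, with 1073.7 to 1285.3 normalized counts in Mrc1Cre Xpr1fl/fl samples and 1780.9 to 2239.2 in controls (log2 fold change −0.77, adjusted p = 4.13e-05, from limma across all genes). Mrc1 fell by 1.72 on the log2 scale (adjusted p = 5.37e-06, limma). The Cre construct sits within Mrc1, and controls carry none. An effect of this insertion and one of Xpr1 loss cannot be told apart here, for Mrc1 or for other genes. The 10 macrophage markers all had a row and summed to 229017.0 to 249729.7 normalized counts against 231180.4 to 277487.3 in controls. Among them Timd4, Clec4f, Vsig4 and C1qa were lower and Adgre1, the gene of F4/80, did not pass. The names of the columns begin with 1 of 3 dates, which the sources used here do not explain: controls 1 to 3 and Mrc1Cre Xpr1fl/fl sample 5 carry the earliest, control 4 the middle one, and Mrc1Cre Xpr1fl/fl samples 1 to 4 the latest.

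All 8 OAS genes had higher mean normalized counts in Mrc1Cre Xpr1fl/fl samples, with a median log2 fold change of 1.03 against 0.01 over all genes tested. Oas3 and Oasl1 stood apart at 7.28 and 6.48 times the control mean. Oasl2 was intermediate at 3.07 times, and the other 5 genes lay between 1.77 and 2.04 times. In 7 of the 8, every Mrc1Cre Xpr1fl/fl sample lay above every control, which was so for 16.6% of all genes tested. Since this contrast chose the genes, nothing is read from this count. In bulk samples, fewer cells of a type and less RNA per cell cannot be told apart.

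**Figure D1:**
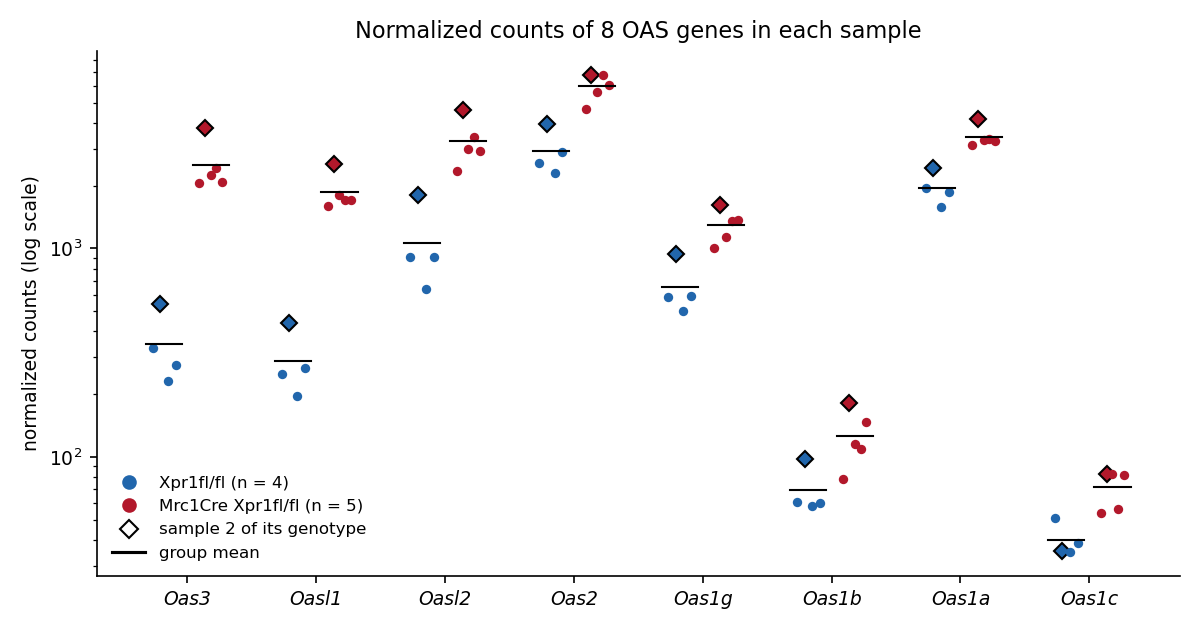
Normalized counts (log axis) of the 8 OAS genes in each of 4 Xpr1fl/fl samples (blue) and 5 Mrc1Cre Xpr1fl/fl samples (red), ordered by the size of the difference; black lines are group means and outlined diamonds mark sample 2 of each genotype. The groups overlap for Oas1b alone, and the diamonds are the highest point of both groups for every gene but Oas1c.

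Oas3, the largest synthetase, had 2060.6, 3778.5, 2237.7, 2430.2 and 2080.8 normalized counts in Mrc1Cre Xpr1fl/fl samples 1 to 5. In controls 1 to 4 it had 332.8, 543.2, 231.7 and 276.4. The lowest Mrc1Cre Xpr1fl/fl value was thus several times the highest control, and sample 2 stood above the rest in each genotype. The means were 2517.5 ± 720.3 (SD, n = 5) and 346.0 ± 137.8 (SD, n = 4), a ratio of 7.28 and a log2 fold change of 2.90 (standard error 0.24), the largest of the family.

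Oasl1, the family member without synthetase activity, followed closely. Its normalized counts were 1591.6, 2535.6, 1797.9, 1702.7 and 1707.8 in Mrc1Cre Xpr1fl/fl samples and 250.7, 436.8, 196.8 and 267.8 in controls. Sample 2 was again the highest of both groups, and apart from it the Mrc1Cre Xpr1fl/fl samples lay close together. The means of 1867.1 ± 380.8 (SD, n = 5) and 288.0 ± 103.7 (SD, n = 4) differed 6.48-fold, with a log2 fold change of 2.73 (standard error 0.20). The log2 fold changes of Oas3 and Oasl1 lay closer together than either standard error.

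Oasl2, the neighbour of Oasl1 and an active synthetase, had a smaller difference and a higher control value. It had 2342.2, 4625.3, 3008.6, 3438.7 and 2929.2 normalized counts in Mrc1Cre Xpr1fl/fl samples and 912.9, 1801.4, 635.3 and 906.8 in controls. Control 2 came close to the lowest Mrc1Cre Xpr1fl/fl sample without reaching it. The ratio of the means was 3.07 (3268.8 ± 853.0 against 1064.1 ± 508.3, SD, n = 5 and 4), and the log2 fold change was 1.69 (standard error 0.26). Within each sample the ratio of Oasl1 to Oasl2, in normalized counts per kb of transcript, was 0.70 to 0.96 in Mrc1Cre Xpr1fl/fl samples and 0.34 to 0.44 in controls, so the pair did not keep its proportion.

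Oas2 and Oas3 lie side by side on the same strand and also differed between the genotypes by unequal amounts. Oas2, the 2-unit synthetase, had 4660.4, 6818.8, 5612.2, 6762.5 and 6089.3 normalized counts in Mrc1Cre Xpr1fl/fl samples and 2565.9, 3969.3, 2306.7 and 2904.4 in controls. The groups did not overlap, and control 2 was again the one nearest to the other genotype. The means were 5988.6 ± 895.0 (SD, n = 5) and 2936.6 ± 730.7 (SD, n = 4), a ratio of 2.04 and a log2 fold change of 1.05 (standard error 0.15). The ratio of Oas3 to Oas2 per kb was 0.281 to 0.456 in Mrc1Cre Xpr1fl/fl samples against 0.0783 to 0.113 in controls.

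Of the single-unit synthetases, Oas1a and Oas1g were the abundant copies. Oas1a had 3119.5, 4169.8, 3295.7, 3344.8 and 3269.1 normalized counts in Mrc1Cre Xpr1fl/fl samples and 1942.6, 2422.5, 1571.8 and 1855.2 in controls. The groups were apart, with 4 of the 5 Mrc1Cre Xpr1fl/fl samples within a narrow band and sample 2 above it. The log2 fold change was 0.83 (standard error 0.12), from means of 3439.8 ± 416.7 (SD, n = 5) and 1948.0 ± 353.7 (SD, n = 4). Oas1g had 1007.6, 1606.9, 1131.4, 1350.2 and 1372.6 against 582.0, 940.5, 502.6 and 591.0, with only a narrow gap between the lowest Mrc1Cre Xpr1fl/fl sample and control 2. Its log2 fold change was 1.01 (standard error 0.18), from means of 1293.8 ± 232.2 (SD, n = 5) and 654.0 ± 195.0 (SD, n = 4).

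These 2 genes cannot be fully separated by reads. The canonical transcripts of Oas1a and Oas1g were 97.6% identical over 1861 aligned columns. Of all 31-base words of the Oas1a transcript, 67.78% also occur in transcripts of Oas1g, and 66.31% of those of Oas1g occur in Oas1a. Reads are longer than these words, so the share of reads that match both genes was not measured. How the reads were divided between them rests on the quantification model, and the split is uncertain. Words shared with any other gene made up 22.25% of the Oas1c transcript, mainly with Oas1e, 9.24% of Oas1b, 3.75% of Oas3, 0.52% of Oasl2, 0.14% of Oasl1 and 0.0% of Oas2. When the 4 Oas1 genes were summed into a single feature, the log2 fold change was 0.87 (standard error 0.13). Exons of genes annotated on the opposite strand cover 9.44% of the exonic bases of Oas1c, 3.96% of Oas2 and 3.14% of Oasl1. The library kit preserves strand, but the strand setting of the quantification is not given in the sources used here.

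Oas1b and Oas1c, which start head to head, were scarce. Oas1b had 78.3, 180.5, 115.4, 108.9 and 147.3 normalized counts in Mrc1Cre Xpr1fl/fl samples and 60.4, 97.6, 58.1 and 59.7 in controls. It is the gene whose groups overlap: control 2 exceeded Mrc1Cre Xpr1fl/fl sample 1. With a standard error of 0.25 its log2 fold change was 0.84, from means of 126.1 ± 39.1 (SD, n = 5) and 69.0 ± 19.1 (SD, n = 4). Oas1c had 53.9, 82.3, 82.8, 55.9 and 82.0 against 50.7, 35.4, 35.0 and 38.7, and here control 1 was the highest of its group and control 2 among the lowest. Its log2 fold change of 0.81 (standard error 0.21) came from means of 71.4 ± 15.1 (SD, n = 5) and 40.0 ± 7.3 (SD, n = 4).

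Levels of different genes were compared as normalized counts per kb of the canonical transcript. In controls the order was Oas1a (1019.4 ± 185.1, SD, n = 4), Oas2 (756.1 ± 188.1), Oasl2 (340.7 ± 162.8), Oas1g (330.8 ± 98.7), Oasl1 (130.3 ± 46.9), Oas3 (73.3 ± 29.2), Oas1b (37.5 ± 10.4) and Oas1c (17.5 ± 3.2). Oas1a exceeded Oas2 in each of the 4 controls although their ranges overlapped, whereas Oasl2 exceeded Oas1g in 1 of the 4, so these neighbours did not differ beyond their spread. The ranges of Oasl1 and Oas3 overlapped, as did those of Oas3 and Oas1b, with the first of each pair higher in 4 of 4. In Mrc1Cre Xpr1fl/fl samples the order was Oas1a (1800.0 ± 218.0, SD, n = 5), Oas2 (1541.9 ± 230.4), Oasl2 (1046.7 ± 273.1), Oasl1 (844.9 ± 172.3), Oas1g (654.4 ± 117.5), Oas3 (533.0 ± 152.5), Oas1b (68.6 ± 21.3) and Oas1c (31.2 ± 6.6). Oasl1 thus stood above Oas1g. Each gene exceeded the next in 5 of 5 samples, although the ranges overlapped for all neighbours down to Oas3. With merged exon length in place of the canonical transcript, 4 of the 8 positions in controls were kept: Oas2 and Oas1g moved to the top and Oas1a, whose merged exons span 7989 bases against 1911 in the canonical transcript, to the third place. In Mrc1Cre Xpr1fl/fl samples 3 of the 8 were kept (Oas3, Oas1b and Oas1c), and the order above them became Oas2, Oasl1, Oas1g, Oasl2 and Oas1a, so the order of the 5 most abundant genes depends on the length used.

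The sum of the 8 genes per kb was 5314.6, 8313.0, 6091.4, 6644.2 and 6240.0 in Mrc1Cre Xpr1fl/fl samples and 2502.8, 3723.4, 2059.1 and 2537.0 in controls, a ratio of means of 2.41. Its make-up differed as well. Oas3 and Oasl1 together were the minor part of the sum in controls, at 2.65% ± 0.37 and 4.74% ± 0.42 (SD, n = 4), and took 8.08% ± 0.95 and 12.9% ± 0.9 in Mrc1Cre Xpr1fl/fl samples (SD, n = 5). Oas1a held 34.0% to 40.6% of the sum in controls and 26.3% to 30.7% in Mrc1Cre Xpr1fl/fl samples. Oas2 held 26.4% to 29.5% and 21.1% to 26.2%. Shares are tied to each other, so a rise in some forces a fall in others, and none of the 8 genes was lower in normalized counts. The sum and the shares use the canonical transcript length, and the make-up depends on that choice. With merged exon length Oas1a had rank 3 in controls and rank 5 in Mrc1Cre Xpr1fl/fl samples. The division between Oas1a and Oas1g is uncertain as well.

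**Figure D2:**
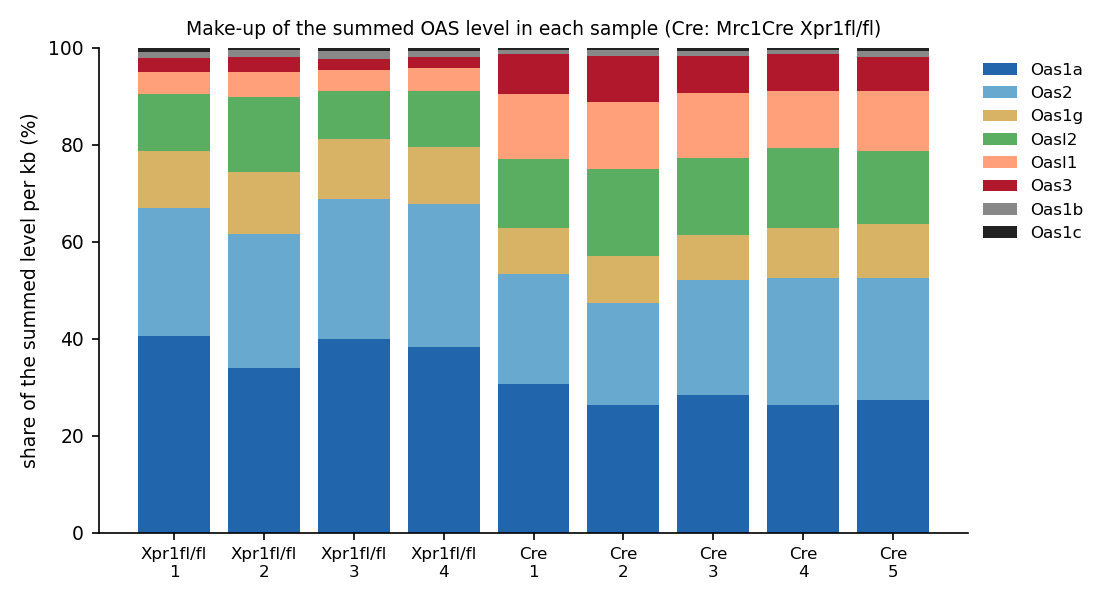
Share (%) of each OAS gene in the summed level of the 8 genes per kb of canonical transcript. Bars show 4 Xpr1fl/fl samples and 5 Mrc1Cre Xpr1fl/fl samples (Cre), stacked from Oas1a at the bottom. The Oas3 and Oasl1 segments are wider in every Mrc1Cre Xpr1fl/fl sample (7.06% to 9.62% and 11.6% to 13.8%) than in any control (2.31% to 3.09% and 4.33% to 5.31%).

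The genes also varied together between samples of the same genotype. Sample 2 was the highest of its genotype for 7 of the 8 genes in both groups, all but Oas1c. Mrc1Cre Xpr1fl/fl sample 1 and control 3 were the lowest of their groups for 8 of 8. In control 2 the values were 2.20 times the mean of the other controls for Oasl2, 1.94 times for Oas3 and 1.83 times for Oasl1, and 0.854 times for Oas1c. Pearson's r between each gene and the mean of the other members over the 9 samples was 0.82 for Oas1c, 0.91 for Oas1b and 0.975 to 0.988 for the other 6, values that include the difference between the genotypes.

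**Figure D3:**
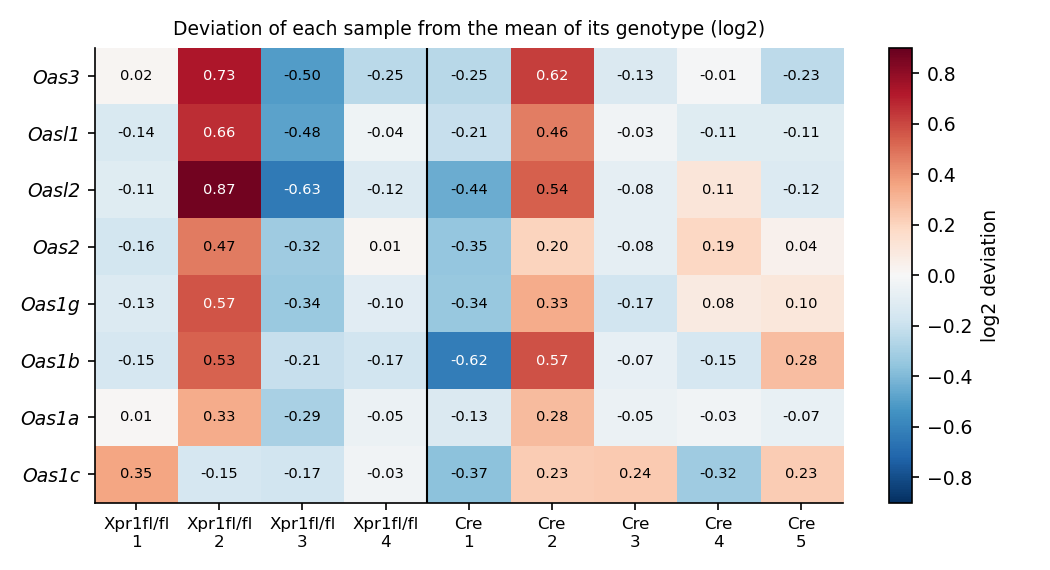
Deviation of each sample from the mean of its own genotype, on the scale of log2(normalized count + 1), for the 8 OAS genes (rows) and 9 samples (columns; Cre, Mrc1Cre Xpr1fl/fl). The columns of sample 2 are positive in both genotypes for every gene but Oas1c in controls, and those of control 3 and Mrc1Cre Xpr1fl/fl sample 1 are negative throughout.

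RNA of several other cell types also differed between the genotypes. All 10 erythroid markers were lower in Mrc1Cre Xpr1fl/fl samples at an adjusted p under 0.05 (limma), as were 21.6% of all genes, and their sum was 90837.3 to 303518.2 normalized counts, or 0.322% to 1.08% of the total, against 397367.9 to 638162.5, or 1.475% to 2.3%. Sample 2 had the lowest erythroid sum of each genotype, and control 3, lowest in the OAS genes, the highest of all. Controls 1 and 4 lay between controls 2 and 3 in the erythroid sum (547548.1 and 619205.9) and in the summed OAS level per kb (2502.8 and 2537.0). Mrc1Cre Xpr1fl/fl sample 1, lowest in the OAS genes, had the next lowest erythroid sum of its genotype (120679.6). Mrc1Cre Xpr1fl/fl sample 5, with the highest of its genotype (303518.2), had OAS values near the middle of its group. Of the other lists, 8 of 8 hepatocyte, 6 of 8 endothelial, 3 of 9 neutrophil and 2 of 4 megakaryocyte markers were lower and 0 higher, and of 7 monocyte markers 1 (Plac8) was higher and 3 lower. The monocyte markers summed to 7234.6 to 10006.8 normalized counts, with the maximum in sample 2, against 5396.3 to 7946.3 in controls, where the maximum was in control 3. The part of these cells in the OAS values was not tested. Plasmacytoid dendritic cells, a strong source of interferon, were represented by few transcripts: 4 of 5 of their markers had a row (Klk1 had none), and these summed to 37.9 to 65.1 normalized counts in Mrc1Cre Xpr1fl/fl samples and 31 to 90.4 in controls.

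The dates are nearly confounded with the genotypes, and a fit with the date as a term rests on Mrc1Cre Xpr1fl/fl sample 5 against controls 1 to 3. Within this date the Mrc1Cre Xpr1fl/fl sample lay above all 3 controls for each of the 8 genes, Oas1b included (147.3 against 58.1 to 97.6 normalized counts). The contrast between the genotypes chose these genes, and the share over all genes was not computed. Nothing is therefore read from this count. The ratio to the control mean was 5.79 for Oasl1, 5.64 for Oas3, 2.62 for Oasl2, 2.07 for Oas2, 2.04 for Oas1b, 2.03 for Oas1c and Oas1g, and 1.65 for Oas1a. The median log2 fold change with the date as a term was 1.08. The order of the steep genes was close to that without the term, with Oasl1 and Oas3 exchanged.

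Genes listed with the 2-5A pathway changed in both directions. Of 3 such genes, 2 were higher and 1 lower at an adjusted p under 0.05 (limma), as were 21.5% and 21.6% of all genes tested. Each differed by less than the smallest OAS difference, but the OAS genes were chosen by this contrast, so nothing is read from that. Akap7, which encodes an anchoring protein with a domain able to degrade 2-5A, fell by 0.68 (standard error 0.13, adjusted p = 0.00157, limma), from 391.2 ± 71.2 (SD, n = 4) to 241.3 ± 22.9 normalized counts (SD, n = 5).

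The other 2 rose slightly. Abce1, whose product recycles ribosomes, went from 4536.8 ± 269.5 normalized counts in controls (SD, n = 4) to 5501.8 ± 310.2 (SD, n = 5), which is 0.28 on the log2 scale (adjusted p = 0.00266, limma). Pde12, the gene of a 2-5A phosphodiesterase, had 795.3 ± 37.5 (SD, n = 5) and 667.6 ± 50.8 (SD, n = 4), a log2 fold change of 0.25 (adjusted p = 0.0131, limma). Pde12 lost its call after scaling to the 75th percentile (adjusted p = 0.0526, limma), which moved the median log2 fold change of all genes to −0.07. With the date as a term the log2 fold changes were −0.57 for Akap7, 0.23 for Abce1 and 0.21 for Pde12. Their calls were lost in that fit, as most were over the whole table.

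**Figure D4:**
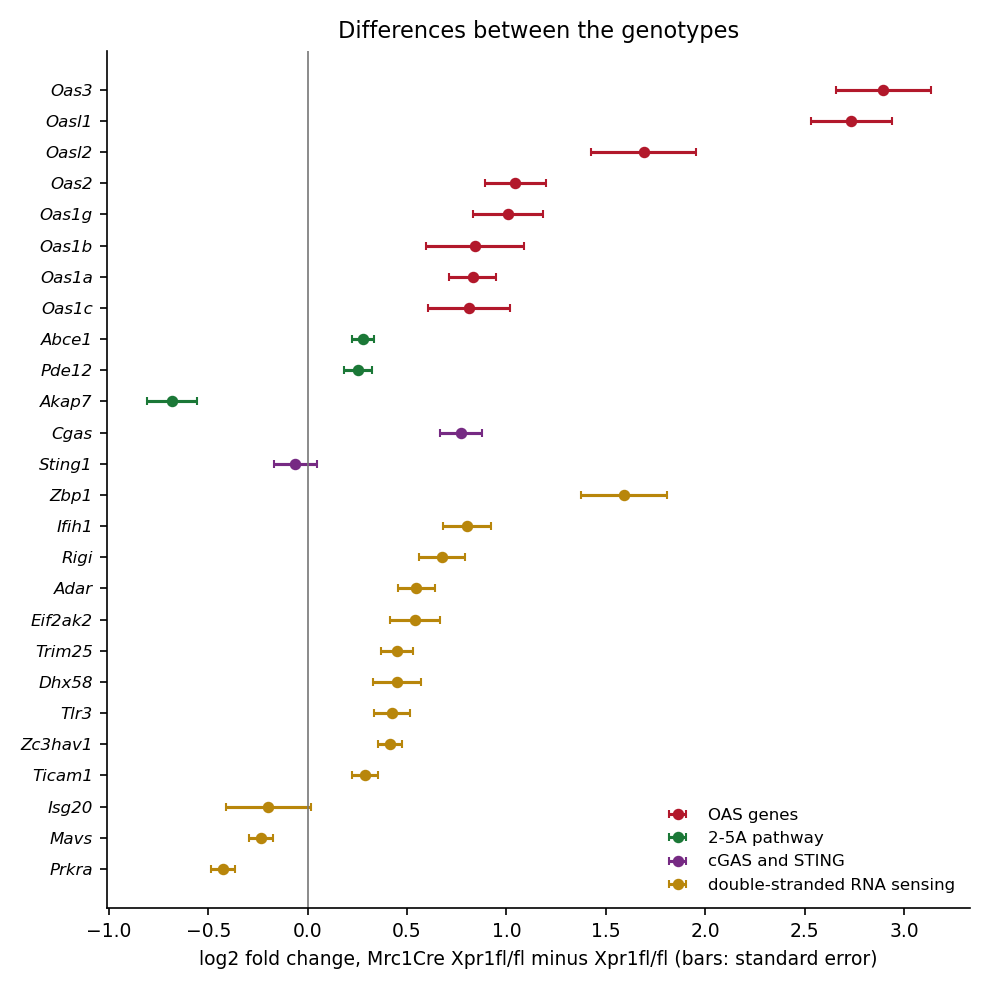
Log2 fold change of Mrc1Cre Xpr1fl/fl (n = 5) minus Xpr1fl/fl (n = 4) samples with its standard error, for the OAS genes (red, chosen by this contrast and not tested), the 2-5A pathway (green), cGAS and STING (purple) and double-stranded RNA sensing (ochre). The OAS genes span 0.81 to 2.90, and of the 2-5A pathway only Akap7 lies left of the line at 0.

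Genes listed with double-stranded RNA sensing, which include adaptors and enzymes beside the sensors, were mostly higher. Of 13 such genes, 10 were higher, 2 lower and 1 did not pass (limma, adjusted p under 0.05; over all genes, 21.5% were higher and 21.6% lower), with a median log2 fold change of 0.45 against 0.01 over all genes. The largest rises were those of Zbp1, a sensor of Z-form nucleic acids (1.59, adjusted p = 0.000197, limma), Ifih1, which encodes MDA5 (0.80, adjusted p = 0.000409, limma), and Rigi (0.68, adjusted p = 0.000928, limma). The 2 that fell were Prkra, an activator of the kinase PKR (by 0.43, adjusted p = 0.00024, limma), and Mavs, the adaptor of the RIG-I-like receptors (by 0.24, adjusted p = 0.00873, limma). Isg20, an exonuclease, had a log2 fold change of −0.20 (adjusted p = 0.487, limma), which was 0.40 with the date as a term. With that term, 1 gene of the list stayed higher (Zbp1, adjusted p = 0.0439, limma) and 1 lower (Prkra, adjusted p = 0.0497, limma), where 4.24% of all genes were higher and 4.54% lower.

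Cgas encodes a DNA sensor whose fold resembles that of the OAS proteins. From 622.2 ± 83.8 normalized counts in controls (SD, n = 4) it rose to 1061.5 ± 117.9 (SD, n = 5), with no overlap, a log2 fold change of 0.77 (adjusted p = 0.000203, limma) and of 0.82 once the date was a term (adjusted p = 0.031, limma). Sting1, its adaptor, had a log2 fold change of −0.06 (adjusted p = 0.671, limma).

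Type I interferon signals through a pair of receptor chains to a transcription factor complex that binds the response element searched for above. Of 15 genes of this signalling, 8 were higher, 2 lower and 5 did not pass (limma, adjusted p under 0.05), beside the same 21.5% and 21.6% of all genes, with a median log2 fold change of 0.21. The largest rises were those of Isg15, a ubiquitin-like modifier (1.60, adjusted p = 0.000105, limma), Irf7 (1.49, adjusted p = 3.43e-05, limma) and Usp18, which removes ISG15 and damps the receptor (1.37, adjusted p = 7.95e-05, limma). Ifnar2, a receptor chain, and Irf3 were lower by small amounts (log2 fold changes −0.16 and −0.17, adjusted p = 0.0374 and 0.0288, limma). Ifnar1 (0.09), Tyk2 (0.16), Irf2 (0.07), Irf8 (0.10) and Socs3 (−0.14) did not pass, with limma adjusted p-values of 0.301, 0.165, 0.489, 0.192 and 0.404.

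Several calls of this list lay near the threshold and were lost when 1 of several samples was left out. The limma adjusted p of Ifnar2 was 0.0568 to 0.103 when Mrc1Cre Xpr1fl/fl sample 1, 2, 4 or 5 or control 1, 3 or 4 was left out, and that of Irf3 was 0.0524 to 0.0679 without Mrc1Cre Xpr1fl/fl sample 1, 2 or 3 or control 1, 2 or 3. Among the higher genes, Irf1 (log2 fold change 0.35, adjusted p = 0.0444, limma) and Socs1, an inhibitor of the signalling (0.88, adjusted p = 0.0343, limma), lost their calls in 5 of the 9 omissions each, with limma adjusted p-values of 0.0503 to 0.103 and 0.0625 to 0.0853. These 2 are named because their calls changed. With the date as a term their log2 fold changes were larger, at 0.78 for Irf1 and 1.58 for Socs1. Tyk2 passed without Mrc1Cre Xpr1fl/fl sample 1 (adjusted p = 0.0108, limma). The number of called genes in the list fell from 10 to 6, with 0 of them lower, without Mrc1Cre Xpr1fl/fl sample 2 and likewise without control 3. With the date as a term most calls of the list were lost, as over the whole table. After scaling to the 75th percentile 4 genes of the list were higher and 2 lower. That scaling called 1999 of all 13594 genes higher and 3706 lower. Of 21 interferon ligand genes, 0 had a row in the table, which holds no gene with a mean under 5.79 normalized counts, so their transcripts were not analysed here.

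Genes around the 2 loci differed by less than the OAS genes or in the opposite direction. The OAS genes were chosen by this contrast, so nothing is read from that comparison. Of 19 other genes with a row within 250 kb of either locus, 7 were higher, 3 lower and 9 did not pass (limma, adjusted p under 0.05), where 21.5% of all genes were higher and 21.6% lower, and none exceeded a log2 fold change of 0.56. The nearest gene of all, 2210016L21Rik, begins 4.2 kb after Oasl1 and had a log2 fold change of 0.19 (adjusted p = 0.307, limma). On the other side Gm57857, 73.4 kb before Oasl2, had 0.31 (adjusted p = 0.0174, limma, and 0.0564 without control 3). At the second locus, Ddx54, which encodes an RNA helicase and lies 101.7 kb before Oas2, rose by 0.29 (adjusted p = 0.00484, limma), and Ptpn11, the gene of the phosphatase SHP2, 222.1 kb after Oas1a, rose by 0.35 (adjusted p = 0.00129, limma).

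The other neighbours past the threshold were Ankrd13a (0.18, adjusted p = 0.0132, limma), Unc119b (0.29, adjusted p = 0.0135, limma), Mlec (0.56, adjusted p = 0.000112, limma) and Slc8b1 (0.33, adjusted p = 0.00453, limma), which rose. Trpv4, a calcium channel (−1.30, adjusted p = 9.24e-05, limma), Tpcn1, a channel of endosomes and lysosomes (−0.39, adjusted p = 0.00406, limma), and Iqcd (−1.47, adjusted p = 0.00454, limma) fell, Iqcd from a control mean of 17.2 normalized counts. Ankrd13a and Slc8b1 lost their calls after quantile normalization (adjusted p = 0.221 and 0.0511, limma). Ankrd13a, Gm57857 and Unc119b lost theirs after scaling to the 75th percentile (adjusted p = 0.101, 0.0609 and 0.0534, limma). That scaling moved the median log2 fold change of all genes to −0.07. With the date as a term the log2 fold changes were 0.41 for Mlec, 0.57 for Slc8b1 and −1.45 for Trpv4. Those of Ankrd13a and Unc119b were 0.08 and 0.11. Most calls of the neighbours were lost in that fit, as over the whole table.

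**Figure D5:**
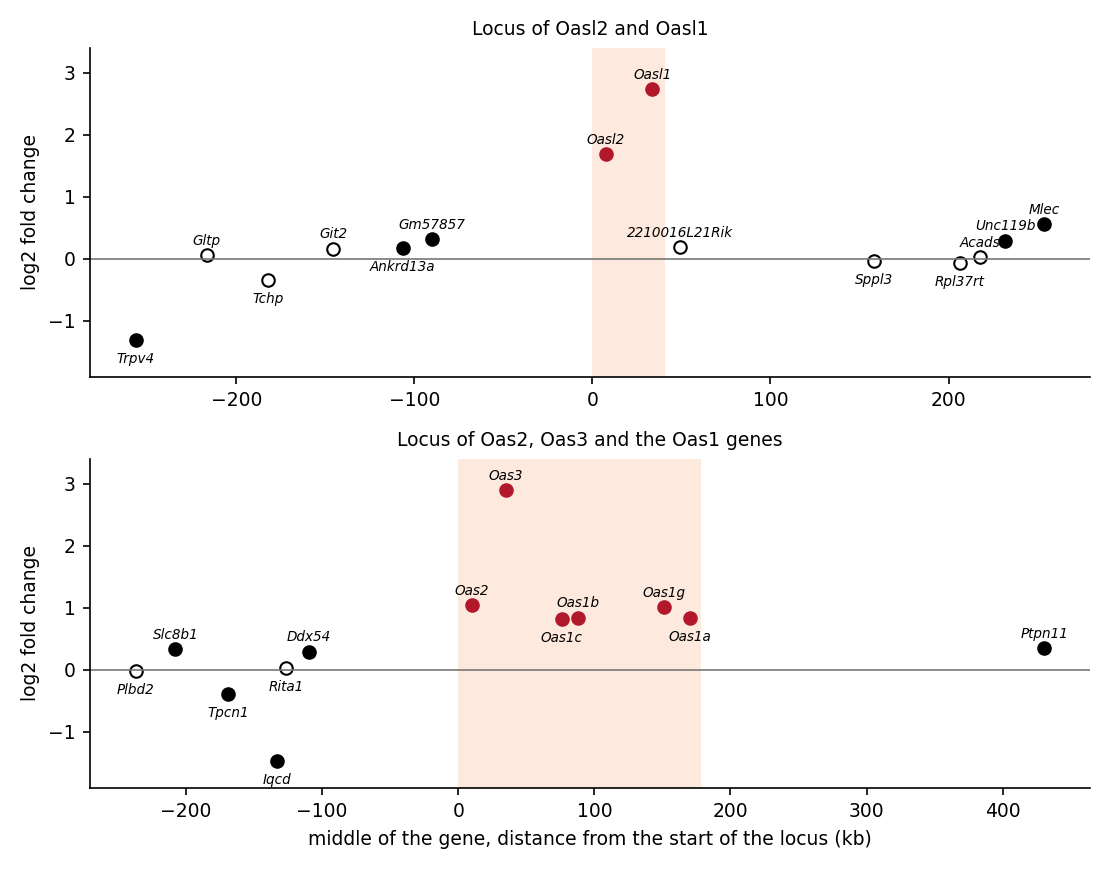
Log2 fold change of each gene with a row against the distance of its middle from the start of the locus (kb), for the locus of Oasl2 and Oasl1 (upper panel) and that of Oas2, Oas3 and the Oas1 genes (lower panel); red points are OAS genes, shaded is the span of the locus, and filled black points are neighbours past the threshold. The red points lie between 0.81 and 2.90 and the neighbours between −1.47 and 0.56.

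The genes outside the family with the pattern most like it over the 9 samples, by Pearson's r with the mean of the members' standardized values, were Ifit1 (r = 0.991), Ifi206 (r = 0.991), Irf7 (r = 0.989), Ifit3b (r = 0.985) and Isg15 (r = 0.983). These values describe the order of all 9 samples, the difference between the genotypes included. In all 5 genes the Mrc1Cre Xpr1fl/fl samples lay above every control, which was so for 16.6% of all genes tested. Sample 2 was the highest of both genotypes in each. Both traits belong to the pattern by which these genes were picked, so nothing is read from them. Ifi206 showed the largest ratio of means among them (4.18), followed by Isg15 (2.97), Ifit1 (2.80), Irf7 (2.77) and Ifit3b (1.77). None reached the ratio of Oas3 or Oasl1, which were chosen by this contrast, so nothing is read from that either.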

How the data were processed

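RNA was taken from macrophages of livers at E15.5, sorted with CD45+ F4/80hi CD11blow gates, and 45 ng of total RNA per sample went into stranded mRNA libraries (9 samples). The authors checked the reads with FastQC, quantified them with salmon on GRCm39, imported them with tximport and normalized them with DESeq2. Their deposited values are a signal per gene, normalized counts that are never negative and not whole. Versions are not given in the sources used here. All columns were matched to samples by name (0 left over). The totals of 26942921 to 28309443 per sample are set by the normalization, so depth is unknown. Of the values under 10, 26.5% to 49.7% lay within 0.05 steps of a multiple of the best common spacing, so whole reads were not recovered and the count test foreseen for whole counts was not run.

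Symbols and coordinates came from GENCODE release M39 (13698 of 13708 genes). Genotypes were compared with limma 3.58.1 in R 4.3.3 (eBayes with trend) after a log2 transformation with a pseudocount of 1. Genes needed 10 normalized counts or more in 4 or more samples. The p-values had Benjamini-Hochberg adjustment over 13594 genes and a threshold of 0.05. A fold change on this scale understates that of low genes. The fit was tested on simulated data. The OAS genes and all lists were chosen with earlier results of these data known, and because the rule uses the genotypes, no p-value of an OAS gene is given, and how many of them passed the threshold is counted only to compare the alternatives. The genes named were every OAS gene, the 2-5A and cGAS/STING lists, the 3 largest rises and falls and the genes that did not pass in the sensing and signalling lists, the nearest and the called neighbours within 250 kb, the 5 genes most alike, Xpr1 and Mrc1. Erythroid, macrophage and other markers are named outside that rule, and some genes of the pathway lists are not reported here. The alternatives were pseudocounts of 0.5 and 10, no filter, a filter of 50, quantile normalization, scaling by the 75th percentile, limma robust, with array weights or without trend, the date as a term, the replicate number as a block, and the omission of each sample. Correlations between samples were 0.947 to 0.986, and no pair was taken for a repeated library. Figures were drawn with matplotlib 3.10.9. The single-cell, flow cytometry and qPCR experiments of the study were not used here.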

Additional observations from a re-analysis of the deposited data

Results flagged for a closer look

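In each genotype the highest or lowest sample was set against the others by Dixon's ratio, for all genes named or listed. Of 130 groups of 4 or 5 samples, 14 had a sample apart, where chance alone gives about 6.5. The groups share the same libraries, and some genes were picked for their likeness to the OAS pattern, so nothing is read from this excess.

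Of these 14, 7 were Mrc1Cre Xpr1fl/fl sample 2 lying above the rest of its genotype. It had 4169.8 normalized counts of Oas1a (others 3119.5 to 3344.8), 3778.5 of Oas3 (others 2060.6 to 2430.2) and 2535.6 of Oasl1 (others 1591.6 to 1797.9). Outside the family it had 1554.6 of Zbp1, 2118.1 of Isg15, 1609.1 of Ifi206 and 956.1 of Ifit3b. Isg15, Ifi206 and Ifit3b are among the genes picked for their likeness to the OAS pattern, in which this sample is high. Nothing is therefore read from their values in it. The same sample had the lowest erythroid sum of all 9 (90837.3 normalized counts), and the part of this in its values was not tested. Control 2 stood apart for Oas1b, at 97.6 normalized counts against 58.1 to 60.4 in the other controls, and for Irf2, where it was lowest at 2208.5 against 2483.8 to 2520.8.

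The other samples apart were single values. Ifnar1 was lowest in Mrc1Cre Xpr1fl/fl sample 5 (4052.4 against 4534.0 to 4657.6 normalized counts) and in control 1 (3754.6 against 4363.4 to 4445.7), both of the earliest date. Gltp was highest in control 1 (5431.7 against 4881.8 to 4949.8), Trpv4 in Mrc1Cre Xpr1fl/fl sample 4 (127.1 against 85.0 to 96.6) and Gm57857 in Mrc1Cre Xpr1fl/fl sample 3 (740.7 against 588.1 to 618.9).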

How the results depend on the processing

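Over 20 alternatives the median log2 fold change of the 8 OAS genes stayed between 0.917 and 1.198, both reached by leaving out a sample, and that of Oas3 between 2.58 and 3.14. Of 323 values recomputed for the OAS genes and the counts of calls, 311 moved little and 12 moved, and no OAS fold change changed sign. Of the 52 single genes of the other lists, 32 gained or lost a call under 1 alternative or more (17 of them only with the date as a term), and 13 changed sign, 0 of which had passed the threshold. The date as a term moved the most: the genes called over the whole table went from 5865 to 1194, the OAS genes past the threshold from 8 to 3 (a count on the contrast that chose them, from which nothing is read), the 2-5A genes from 3 to 0, the sensing genes from 12 to 2, the signalling genes from 10 to 4 and the neighbours from 10 to 3. The term leaves 1 Mrc1Cre Xpr1fl/fl sample against 3 controls of its date. After scaling to the 75th percentile 6 signalling genes were called, and over all genes 1999 were higher and 3706 lower. Leaving out each sample gave 6 (without Mrc1Cre Xpr1fl/fl sample 2 or control 3) to 9 of them, 4815 to 6081 genes over the table, 8 OAS genes each time, 3 2-5A genes, 12 sensing genes and 8 to 11 neighbours. With merged exon length 4 of 8 positions in the order by level were kept in controls and 3 in Mrc1Cre Xpr1fl/fl samples. The replicate numbers did not pair the samples (correlations of −0.033, 0.147, −0.011 and −0.031 for numbers 1 to 4). With the replicate block 6226 of the 13594 genes were called, all 8 OAS genes among them. Mrc1Cre Xpr1fl/fl sample 5 has no control of its number, and the OAS fold changes with the block equalled those without this sample. Nothing is read from the number of OAS genes called, with the block or with a sample left out, because this contrast chose them. Absolute depth is unknown, which limits most the scarce Oas1b and Oas1c.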
